A study of Mus musculus with 4 samples.

Results

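CHD4 is the ATPase that moves nucleosomes in the NuRD complex, which also carries histone deacetylases and lies at both active and silenced genes. The intervals described here are stretches of the mouse genome with CHD4 signal called above the control that the authors' annotation places neither within 1 kb of a transcript start, nor in an intron, nor in distal intergenic sequence. They are the promoter flanks from 1 to 2 kb and from 2 to 3 kb from a transcript start, exons, 5′ and 3′ untranslated regions (UTRs), and the stretch just downstream of a gene's end. They were taken from the authors' peak list by its annotation column alone, without regard to any measured value. There are 268 of them among 1849 intervals in all, which is 14.5% (exact 95% binomial interval 12.9 to 16.2%). They hold 319 of the 2066 summits in the list.

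The data are CUT&Tag libraries, in which an antibody brings a Tn5 transposase to its target on chromatin so that the DNA around it is cut and tagged for sequencing. C57BL/6 mouse cells labelled spermatogonial were profiled in 2 samples with the CHD4 antibody ab70469 and in 2 with ab6728, labelled as a rabbit antibody against mouse IgG coupled to HRP, each numbered as replicates 1 and 2. No genotype or treatment other than the strain is named. Testes were digested to single cells, and the step that separated spermatogonia and the age of the mice were not stated by any source used here. The deposited result is 1 list of peaks of CHD4 against IgG, with no value for any single sample, and all folds rest on that labelled control. It therefore gives no spread between replicates, no test between conditions was possible, and the cell type could not be checked against expressed markers. Each interval has the authors' fold, which is the ratio of CHD4 to IgG signal at its summit, and a −log10 q, where a larger value means a smaller false discovery rate. The numbers of CHD4 fragments and the IgG expectation, which is the number of fragments that the IgG control predicts at the same place on the scale of the IgG library, were recovered from the deposited fold and −log10 p. The 2 are on different scales, as the CHD4 library was 2.33 times as deep: the fold is the CHD4 fragments times 0.429 plus 1, divided by the IgG expectation plus 1. Summits in the whole list held from 12 to 177 CHD4 fragments, with a median of 27. The IgG expectation never fell below 0.346, a floor shared by 17 of the 268 members (6.34%) and 129 of all 1849 intervals (6.98%). At these intervals it need not be a local IgG level. Folds there, among them those of Fam161a, Dtna and Esyt3 below, rest on that floor.

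An annotation class says where an interval lies relative to known transcripts and does not say what CHD4 does there. A flank interval lies beside the start, where nucleosomes and regulatory elements next to a promoter are found. Exons and UTRs are the parts of a transcript kept after splicing, and many of the shortest annotated transcripts, those of small nuclear RNAs and transfer RNAs, consist of 1 exon.

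Whether an interval counts as a flank, and which gene it is named for, rests on the nearest transcript start in the authors' annotation. The exon, UTR and downstream classes rest on the transcript part or gene end where the interval lies. Counting only starts in the RefSeq promoter table, a gene start lies inside 3 members. The first is Hist1h1d, which encodes a linker histone H1 and is called H1f3 by RefSeq. Its interval at chr13:23555030-23555249 is annotated as a flank 1.77 kb downstream of a transcript start. The RefSeq start of the gene, at position 23555032, lies inside that interval. The following stretches of 30 bases before the RefSeq start are shown because they carry the elements that a histone H1 promoter is known for, so a reader can see that a core promoter borders the interval. They come from the RefSeq promoter table of GRCm38.p6 and read 5′ to 3′ on the plus strand, with the motif in capitals.
H1f3 H1 box AAACACA, 122 bases before the start, chr13:23554899-23554928: tgaggggcaacAAACACAgccacaaggcaa
H1f3 CCAAT, 51 bases before the start, chr13:23554969-23554998: cggcgcagggaaCCAATcaccacgcagctt
H1f3 TATAAA, 26 bases before the start, chr13:23554994-23555023: agcttctctctaTATAAAcccagagcctgc

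Searched on both strands, AAACACA stood in 7.18%, CCAAT in 37.4% and TATAAA in 13.6% of all 32851 promoter windows in that table, which reach from 250 bases before to 50 bases after a start. The Hist1h1d interval itself had a fold of 6.25, with 23 CHD4 fragments and an IgG expectation of 0.738. Such windows were rare among the members. They reached 4 of the 268 (1.49%, exact 95% interval 0.408 to 3.78%), against 337 of the 631 intervals annotated within 1 kb of a start (53.4%, 49.4 to 57.4%). All members lie more than 1 kb from a start in the authors' annotation, so this contrast was largely fixed in advance. Such a window reached 3 of 493 intron intervals (0.609%) and 17 of 457 distal intergenic ones (3.72%). Starts of the small RNA genes under 21 members, described below, are not in the count of 4.

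The other 3 members reached by such a window were an Ampd3 flank, a 5′ UTR interval and an exon interval. The 5′ UTR interval is named for Zfp873, a zinc finger gene whose start lies 24.9 kb away, and overlaps the window of BC024063 by 17 bases. The exon interval, at chr13:23445763-23446130, is named for C230035I16Rik, overlaps the window of the RefSeq gene Gm46404 by 209 bases and contains its start. The Ampd3 flank overlaps the window of Gm39069 by 95 bases and contains that start. Both windows are shown for the named motif they hold, a CCAAT box in the first and, in the second, the B box of RNA polymerase III genes, GGTTCGANNCC.
BC024063 CCAAT, 60 bases before the start, chr10:82083248-82083277, plus strand: aggcctcagtagCCAATcagaacttcgaga
Gm46404 B box, 192 bases before the start, chr13:23446143-23446172, minus strand: aaggtccccGGTTCGAAACCgggcggaaac
The B box begins 22 bases beyond the edge of the interval, and 40 of the 32851 windows held that motif (0.122%). It lies before the Gm46404 start and so not within that gene. The label names only the window, and which transcript the match may belong to was not tested. A match of letters is a description and not a binding site. Sequences of the small RNA genes named later are not in the tables used here.

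The members were spread over every autosome. Exon (82 intervals), promoter 1 to 2 kb (85) and promoter 2 to 3 kb (64) made up most of them, with 21 downstream, 14 3′ UTR and 2 5′ UTR intervals. They named 251 genes, of which 221 are protein-coding, 25 give long non-coding RNAs, 4 give microRNAs and 1 gives a small nuclear RNA. Only 14 genes were named by more than 1 member. Tex14, which encodes a protein of the bridges between germ cells, was named by 5, and each of the other 13 by 2. Chromosome 11 held 25 members (9.33%, against 7.02% of the other intervals), of which 7 are exon intervals on the small RNA genes described below. Chromosome 9 held 24 (8.96% against 4.74%) and chromosome 10 held 9 (3.36% against 6.64%). No counting interval was computed for the shares of these chromosomes. No member lay on the X chromosome, which held 19 of the other 1581 intervals (1.20%). The exact 95% upper limit for 0 of 268 is 1.37%, so a share like that of the other intervals is within counting error.

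The classes had similar folds. The median fold was 4.79 in the 1 to 2 kb flank (95% interval of the median 4.49 to 5.20), 4.85 in the 2 to 3 kb flank (4.54 to 5.22), 4.98 in exons (4.64 to 5.34), 4.52 in 3′ UTRs (3.89 to 6.17) and 5.43 downstream of genes (4.49 to 6.23). The 2 5′ UTR intervals had folds of 4.34 and 3.32. All of these intervals of the median overlap, so at these numbers no difference in fold between the classes could be made out, and the smaller classes leave room for sizeable ones. The promoter class within 1 kb, set beside them, had a median of 4.32 (4.18 to 4.42), which lay below the intervals of the flanks and of exons. Introns had a median of 5.13 (5 to 5.22). Intervals share libraries and are not replicates, so no p-value is given for these differences.

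**Figure D1:**
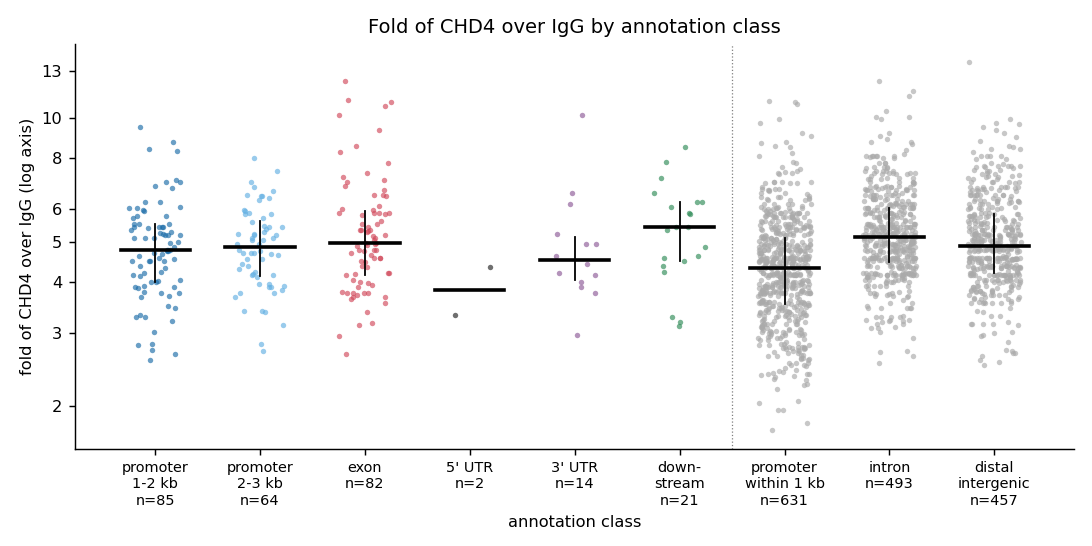
Fold of CHD4 over IgG (log axis) for every interval, by annotation class, with 1 point per interval, a thick bar at the median and a thin line from the lower to the upper quartile (not drawn for the 2 5′ UTR intervals). The 6 classes described here are coloured and the promoter class within 1 kb, introns and distal intergenic intervals are grey. The coloured medians with more than 2 intervals lie between 4.52 and 5.43, and the exon class reaches 12.2.

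A fold of 5 or more was reached by 124 of the 268 members (46.3%), against a background of 42.2% of all 1849 intervals. It was reached by 44.7% of the 1 to 2 kb flank (33.9 to 55.9%), 46.9% of the 2 to 3 kb flank, 48.8% of exons, 28.6% of 3′ UTRs and 57.1% of downstream intervals. The 95% interval of each of these shares included the background. A −log10 q of 2 or more was reached by 210 members (78.4%), against a background of 77.3%. Fewer than 20 CHD4 fragments lay under 55 members (20.5%), against 474 of all intervals (25.6%).

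The levels behind these folds were also close among the member classes. CHD4 fragments at the summit had a median of 26 in the 1 to 2 kb flank, 28 in the 2 to 3 kb flank, 29 in exons, 25 in 3′ UTRs and 23 downstream of genes. The 95% intervals of these medians overlap. The promoter class within 1 kb had 34 (32 to 36), an interval that overlaps those of all these classes, the 1 to 2 kb flank at its edge. The median IgG expectation ran from 0.941 downstream of genes to 1.92 in exons, and was 2.40 within 1 kb of a start. An IgG expectation above 3 was found for 41.8% of intervals within 1 kb of a start, 19.5% of the flanks, 28.0% of exons and 19.0% of downstream intervals.

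When intervals of like IgG expectation were set side by side, a grouping chosen after the data were seen, the flanks and the promoter class within 1 kb had near medians of fold. At an expectation of 1 or less the medians were 5.28 for the flanks and 5.33 within 1 kb of a start. Between 1 and 3 they were 4.73 and 4.48, and above 3 both were 3.39. Exon intervals had 5.86 at an expectation of 1 or less, 4.69 between 1 and 3 and 4 above 3. In these 3 groups of intervals the median fold was lower at each higher level of IgG, whereas the downstream class had 5.43 at 1 or less and 6.15 in its 4 intervals between 1 and 3. The list holds only intervals with a −log10 q of 1.31 or more, which at a low expectation takes a high fold. A fall of fold with IgG was thus partly fixed by the threshold. Above 3, exons had a median of 68 CHD4 fragments, the flanks 52 and intervals within 1 kb of a start 58. Of those 23 exon intervals, the 11 on small RNA genes had a median of 96 fragments and a fold of 4.92, and the other 12 had 52 fragments and a fold of 3.71. The part of the IgG level in the differences between classes was not tested beyond these values.

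**Figure D2:**
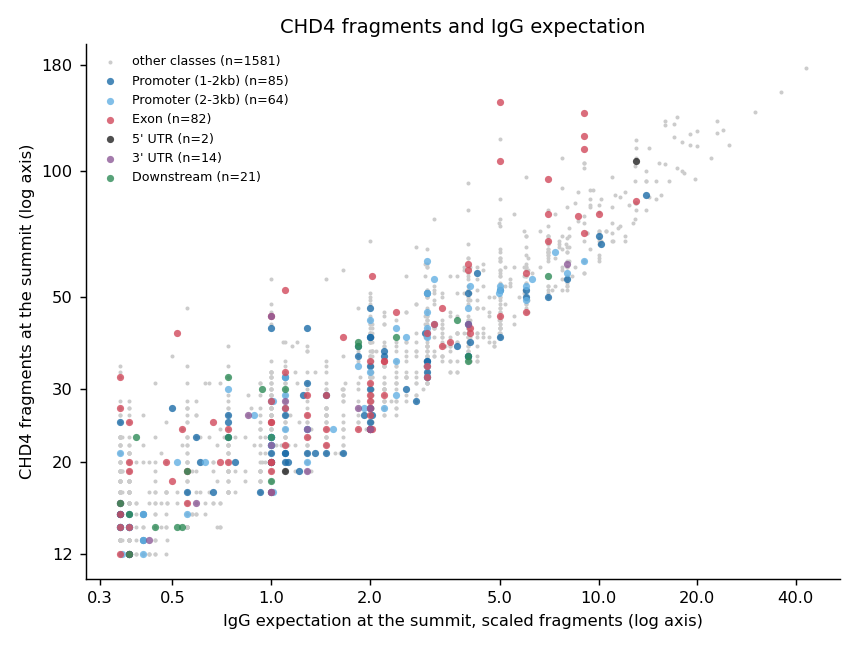
CHD4 fragments at the summit against the IgG expectation at the same place, both on log axes, with 1 point per interval coloured by class and the 1581 intervals of the other classes in grey. Most coloured points follow the grey band, and several exon points at an IgG expectation near 5 to 9 lie above it, among them the highest member with 147 CHD4 fragments.

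In the promoter flanks, the strongest interval by fold lay 1.70 kb downstream of a start of Pvt1, a long non-coding RNA gene beside Myc. It had 42 CHD4 fragments (exact 95% Poisson interval 30.3 to 56.8), an IgG expectation of 1 on the scale of the IgG library and a fold of 9.50. Esyt3, a tether between the endoplasmic reticulum and the plasma membrane, followed with a fold of 8.71. Nr1h4, the bile acid receptor FXR, had 8.39 and Capns1, the small regulatory subunit of calpains, had 8.29. The rest of the 8 highest in the 1 to 2 kb flank were C230035I16Rik (7.05), Entpd5 (6.99), the cofilin phosphatase gene Ssh1 (6.98) and B430319G15Rik (6.83). None of these 8 genes is in a gene list examined here.

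In the 2 to 3 kb flank the splicing regulator Mbnl2 was highest, with a fold of 7.97 at 2.11 kb downstream of a start. A second Mbnl2 interval in the 1 to 2 kb flank had 5. The uncharacterised Gm35584 had 6.98, and Fez2 had 6.79 with the largest −log10 q of the class (10.9), from 61 fragments over 3. Below them came Agpat4, an acyltransferase of phospholipid synthesis (6.62), Pkig, an inhibitor of protein kinase A (6.50), 1700031P21Rik (6.45) and F11r, a tight junction adhesion molecule (6.44). Neat1, the RNA that builds paraspeckles, had a flank interval of fold 5.72 upstream of its start and another of 3.20.

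The lowest folds in the flanks were not the intervals with the fewest fragments. Kdm1a, the histone demethylase LSD1 that works with NuRD, had a fold of 2.58 at 1.44 kb upstream of a start, with 88 CHD4 fragments and an IgG expectation of 14. Rap2b, a small GTPase, had 2.67 and Aloxe3, a lipoxygenase of the epidermis, had 2.73. In the 2 to 3 kb flank the lowest were Card19 (2.72), Gsg1 (2.83) and Irf2bp2 (3.14), each with 49 to 61 fragments. The IgG expectation was 6 or more at each of these 6 intervals. The threshold of the list admits folds this low only with many fragments, so this was partly fixed in advance.

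Flank intervals lay about as often upstream of the start (72) as downstream (77). The upstream ones had a median fold of 4.69, 29 fragments and an IgG expectation of 1.96. The downstream ones had a median fold of 4.98, 27 fragments and an expectation of 1.11. Upstream flank intervals overlapped a gene body in the RefSeq table in 54.2% of cases and downstream ones in 85.7%. A gene's body begins at its start, so this difference was partly fixed in advance. Over both flanks, 92 of 149 lay in the body of the gene they are named for (61.7%), 13 only in that of another gene and 44 in none.

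**Figure D3:**
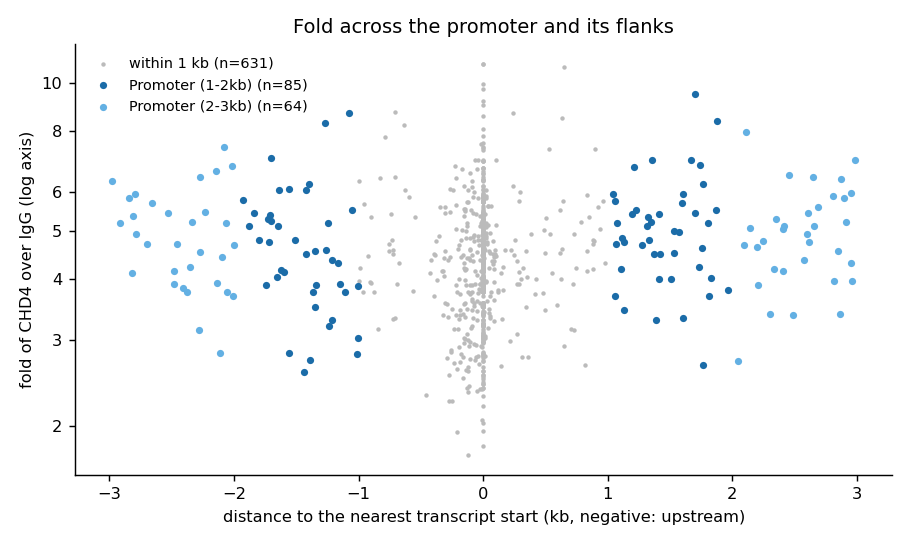
Fold of CHD4 over IgG (log axis) against the distance in kb to the nearest transcript start, negative for upstream, for the intervals within 1 kb of a start (grey) and the flanks from 1 to 2 kb (dark blue) and 2 to 3 kb (light blue). Folds spread from 2.58 to 8.71 upstream and from 2.67 to 9.50 downstream, and the 72 upstream and 77 downstream intervals fill the range without a visible step at 2 kb.

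The distance limits cut through a continuous range. Just inside 1 kb, and so not members, stood Trappc3, Ablim1 and Elf2, at 996, 995 and 988 bases. Just outside it stood Agbl5 at 1003 bases with a fold of 3.02, Rassf8 at 1005 with 3.87 and Ftl1 at 1010 with 2.80. At 3 kb the farthest members were Gm35584 at 2987 bases and Dsg2 at 2977, and Elk3 at 3010 was counted as an intron.

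Exon intervals stood out by the transcripts they lie on. Of the 82, 55 (67.1%, 55.8 to 77.1%) were placed on exons of transcripts to which the annotation gives no gene identifier. Among the 493 intron intervals the same was true of 41 (8.32%, 6.03 to 11.1%). In 34 exon intervals the transcript has a single exon, and every one of those transcripts lacks an identifier. Such transcripts have no intron and could not enter the intron class, so the contrast with introns was partly fixed in advance. For these 55 the gene of the exon is not given, and the gene named beside them need not be it.

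Small RNA genes lay under 18 of the 82 exon intervals (22.0%, 13.6 to 32.5%). Among all members, 21 of 268 overlapped such a gene in the RefSeq table (7.84%), against 25 of the other 1581 intervals (1.58%). The flanks had 2 of 149 (1.34%), introns 2 of 493 (0.406%) and all 1849 intervals 46 (2.49%). In 17 of the 18 exon intervals the transcript has a single exon. Such transcripts could not enter the intron class, so the excess among members was partly fixed in advance. The small RNA genes under members were 15 small nuclear RNA genes, 7 transfer RNA genes and the gene of a 7SL RNA, which is part of the signal recognition particle. Small nuclear RNAs form the core of the spliceosome, and U3, which the table also lists as small nuclear, guides the processing of ribosomal RNA.

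The 18 exon intervals on small RNA genes had a median of 62 CHD4 fragments, an IgG expectation of 5, a width of 769 bases and a median −log10 q of 7.56. The 64 other exon intervals had 25.5 fragments over 1.29 and a width of 332 bases. The fold was nearly the same, with medians of 5.12 and 4.96. Several summits within 1 interval were found in 12 of the 18 and in 12 of the 64 (18.8%). These traits were not particular to exons. The 25 other intervals of the list on small RNA genes, not members, had medians of 50 fragments, an expectation of 5 and a width of 467 bases. Several summits were found in 12 of those 25. Over the whole exon class several summits were found in 24 of 82 (29.3%, 19.7 to 40.4%), against 182 of all 1849 intervals (9.84%). The 1 to 2 kb flank had 2 of 85 and the 2 to 3 kb flank 10 of 64 (15.6%). Introns had 9.74%, and the 1 kb promoter class 8.24%. For the exon intervals off small RNA genes the 95% interval was 10.1 to 30.5%, with a lower limit close to the share of all intervals. Small nuclear and transfer RNA genes exist in near-identical copies. No source used here states how the authors placed reads that match several copies, so the level at any single copy is uncertain.

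Tex14 was named for 5 of these, at the U1 gene Rnu1a1 and the U3 genes Rnu3b1, Rnu3b2, Rnu3b3 and Rnu3b4 on chromosome 11. The interval on Rnu3b1, at chr11:87443295-87444277, had the most CHD4 fragments of all members, with 147 (124 to 173), an IgG expectation of 5, a fold of 10.7 and a −log10 q of 39.1. Rnu3b2 had a fold of 11.1 from 52 fragments over 1.11. Rnu3b3 had a fold of 6.02 from 138 fragments, Rnu3b4 5.33 from 122 and Rnu1a1 4.92 from 113, each over an expectation of about 9. Fold and fragment number thus ranked the copies differently. The 5 intervals lay from 3.73 to 43.9 kb from the nearest Tex14 start.

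Elsewhere, D230017M19Rik was named for intervals on Gm25939 (fold 7.74, 106 fragments) and Gm25360 (5.27, 96 fragments), both listed as small nuclear RNA genes. Armh1 was named for Gm23143 (8.25, 56 fragments), Hhat for Gm22265 (6.82) and Arl4d for the U2 gene Rnu2-10 (6.09, over 3 summits). The lowest fold of the class, 2.67, was also on such a gene, Gm23444, named Slfn14, with 85 CHD4 fragments and an IgG expectation of 13. The U5 gene Rnu5g had 4.36 from 79 fragments and the 7SL gene Rn7s2 had 3.77 from 68. Small RNA genes thus appear at both ends of the exon folds.

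Transfer RNA genes lay under 5 members in 3 classes. In the 1 to 2 kb flank n-TYgta7, a tyrosine tRNA gene under the C230035I16Rik interval, had a fold of 7.05 from 47 fragments over 2, and n-TLtag3, a leucine tRNA gene under the Aloxe3 interval, had 2.73 from 55 over 8. The Trim55 5′ UTR interval covers the tyrosine tRNA genes n-TYgta1 and n-TYgta2, with 106 fragments over 13 and a fold of 3.32. The exon intervals on n-TVcac8 and on n-TMcat6 with n-TStga1 are named for the histone genes Hist1h2ah (4.79) and Hist1h4h (4.98).

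**Figure D4:**
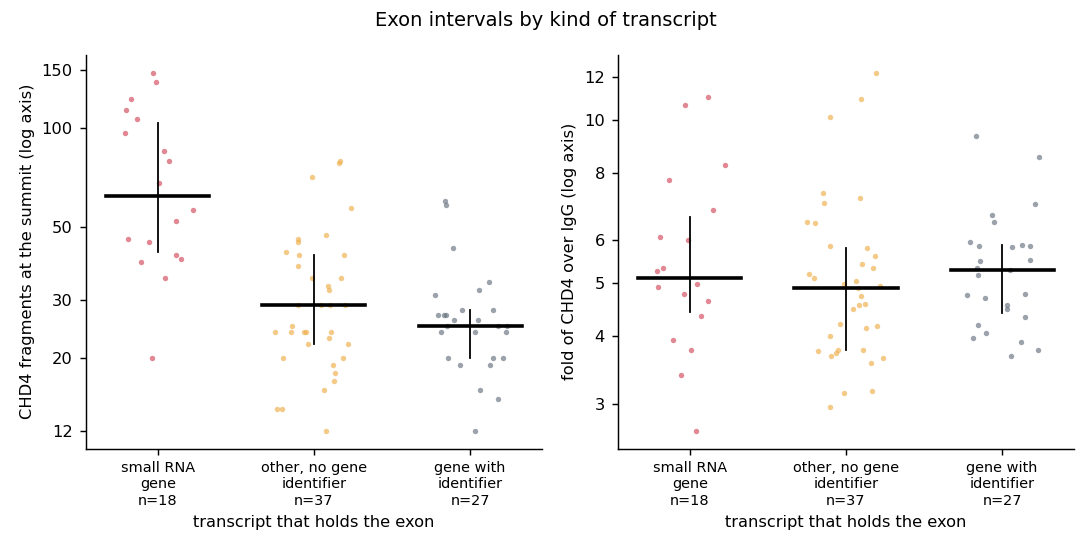
CHD4 fragments (left) and fold of CHD4 over IgG (right), both on log axes, for the 82 exon intervals by the transcript that holds the exon, with 1 point per interval, a thick bar at the median and a thin line between quartiles. Fragments are higher on small RNA genes (median 62, n = 18) than on other transcripts without a gene identifier (29, n = 37) or genes with one (25, n = 27), while the medians of fold lie at 5.12, 4.89 and 5.30.

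Outside small RNA genes, the highest exon fold was 12.2, at chr7:28925356-28925896 in the body of Actn4, an actin cross-linking protein, with 41 CHD4 fragments (29.4 to 55.6) and an IgG expectation of 0.517. The exon is the last of 2 in a transcript without an identifier. Fam161a, with a fold of 10.9, lay 54.3 kb from that gene's start, over the long non-coding RNA gene Gm12059. Rps29, a protein of the small ribosomal subunit, had 10.1 at 15.0 kb from its start, over Gm31447. Of the 37 exon intervals without an identifier and off small RNA genes, 14 lay in the body of the gene they are named for.

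The 27 exon intervals on identified genes are those where exon and gene can be read directly. The exon belonged to the gene named in 21 (77.8%, 57.7 to 91.4%). It belonged to another gene in 6, as with Daam2, a formin regulator of actin (named Mocs1), Cox5a, a subunit of cytochrome c oxidase (named Fam219b), Zfp266 (named Zfp426), Fhl2 (named AI597479), the prostaglandin transporter gene Slco2a1 (named Rab6b) and 4930533B01Rik (named Fmn1). No such interval was on a first exon, 16 on an inner one and 11 on a last one. Every exon interval lay at least 3.41 kb from the nearest start, as nearer ones are annotated as promoter. The lack of first exons was thus partly fixed in advance.

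Dtna, which encodes the dystrophin-associated protein alpha-dystrobrevin, had the highest fold of these, 9.34 in exon 8 of 21, from 27 fragments over 0.346. Wwtr1, the Hippo pathway coactivator TAZ, had 8.56 in exon 3 of 7. Tns3, a tensin of focal adhesions, had intervals in exons 27 and 26 of 31, with folds of 6.50 and 3.68. Syne2, the nuclear envelope protein nesprin-2, had 5.34 in exon 4 of 6 and also a flank interval of 3.79. The lowest folds among all exons other than Slfn14 were Prdm10 (2.96) and Zfp958 (3.14), from 46 and 71 fragments over expectations of 6.00 and 9.

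The 14 3′ UTR intervals ranged in fold from 2.97 to 10.1. Sidt2, which carries nucleic acids across the lysosomal membrane, was highest, with 45 CHD4 fragments over an expectation of 1.00. Its interval overlapped no gene of the RefSeq table. Below it the folds dropped to 6.57 at Spc24, a kinetochore protein of the NDC80 complex, where the interval lies in the body of Kank2, and to 6.17 at Tacc2, a centrosomal protein. Others were Pcnx (5.22), Tmem44 (4.94 and 3.76), the metalloprotease gene Adam9 (4.93), E130308A19Rik (4.61), Slc7a6os in the body of Slc7a6 (4.42), Kctd10 (4.19), Mir2139 in Klhdc7a (4.14), Rnu12 in Cyb5r3 (3.89) and Sbno2 (2.97). A −log10 q below 2 was found for 5 of the 14, so the class is the one that a stricter threshold would shrink most among those of more than 2 intervals.

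Of the 21 downstream intervals, 4 were annotated within 1 kb of a gene's end, 9 from 1 to 2 kb and 8 from 2 to 3 kb. Their median folds were 5.23, 5.43 and 4.95. The annotation does not say which gene ends there, and it need not be the gene of the nearest start, whose name is used below. The highest was 2310008N11Rik at 8.47, from 32 fragments over 0.738, followed by Prkag2, the gamma 2 subunit of AMP-activated kinase (7.83), and Gm20544 (7.14). Malat1, an abundant nuclear long non-coding RNA, had 6.58 from 30 fragments. Txndc2, a thioredoxin of sperm, had 2 intervals, of 6.25 and 5.43, each from 23 fragments, and the first overlaps its gene body.

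The middle of the class held Plekho2 (6.23, over 4 summits), Fem1a (6.08), Fmo6 (5.89), Epdr1 (5.84), Cdhr3 (5.43), the ubiquitin ligase gene Trim56 (5.34) and the condensin gene Ncaph (4.85). The lower end held Cnnm1 (4.62), the tropomyosin gene Tpm1 (4.56), 5830428M24Rik (4.49), the desmosomal cadherin gene Dsc3 (4.36), Tmem43 (4.23), Socs3, a feedback inhibitor of cytokine signalling (3.29), Srl (3.20) and Spc24 (3.13). A downstream interval seldom lay in the gene it is named for: 3 of 21 did, and 15 overlapped no gene body. The class is defined as lying beyond a gene's end, so this was partly fixed in advance. The nearest start was up to 45.0 kb away, at Srl.

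Most members stood without an interval at the start of the gene they name. The named gene also had an interval within 1 kb of a start for 9 of 85 in the 1 to 2 kb flank (10.6%), 10 of 64 in the 2 to 3 kb flank (15.6%), 15 of 82 exon intervals (18.3%), 3 of 14 in 3′ UTRs and 1 of 21 downstream. Off small RNA genes it was true for 6 of 64 exon intervals (9.4%), and on them for 9 of 18. Of introns this was true for 8.72% and of distal intergenic intervals for 8.10%. For these 38 members, on 31 genes, the member had the higher fold in 22 and the promoter interval in 16.

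In the flanks the split was 9 to 10, with medians of 4.69 for the member and 4.47 for the promoter interval. In exons it was 10 to 5, with 5.86 against 4.32, but 9 of these 15 lie on small RNA genes. Of those, 5 are the Tex14 intervals, all set against the same promoter interval. Sos1, the exchange factor that activates Ras, had 4.14 in its flank against 6.00 at its start. Camkk2, a kinase that activates AMP-activated kinase, had 3.89 against 6.34. Malat1 had 6.58 against 3.89 and Rps29 10.1 against 3.21. Fez2 was even, with 6.79 against 6.78, and Sbno2 had 2.97 at its interval annotated as 3′ UTR against 8.06 at a start. Neither position was regularly the stronger.

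**Figure D5:**
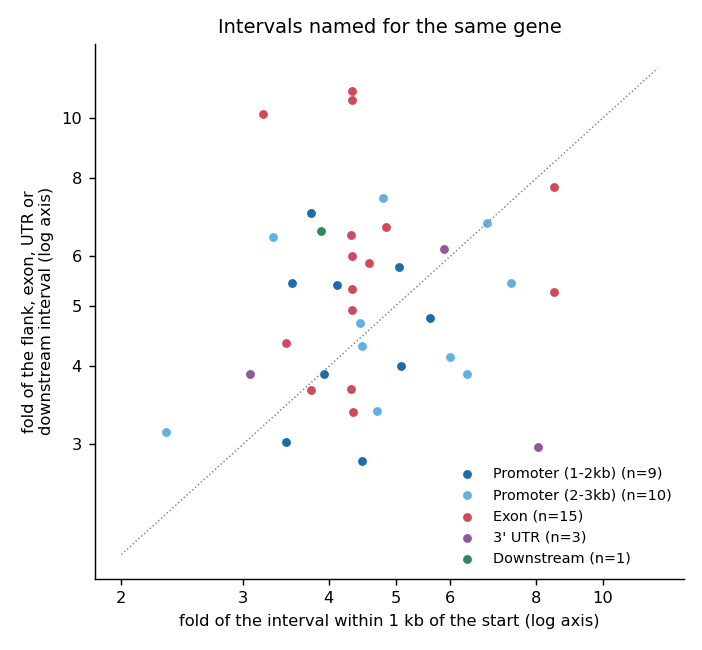
Fold of each member whose named gene also has an interval within 1 kb of a start (vertical, log axis) against the fold of that promoter interval, the highest where a gene has several (horizontal, log axis), with 1 point per member coloured by class and a dotted line of equality. Of the 38 points 22 lie above the line and 16 below it.

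Of the 20 gene lists examined, 11 had a gene named by a member, and none had more than 7. The NuRD list had 1 of 16 genes, Kdm1a, and other chromatin regulators had 4 of 97. Among the latter were Ezh1, a histone H3 lysine methyltransferase of the Polycomb group (5.95 from 20 fragments), Kat2b, the acetyltransferase PCAF (6.74), and Kdm6b, a histone demethylase that opposes Polycomb (3.38 from 55 fragments), each with a flank interval. In the whole list of intervals, 3 NuRD genes and 13 other chromatin regulators were named.

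Among germ cell lists, undifferentiated spermatogonia had 1 of 30 genes, Tex14, and all of its intervals are those on small RNA genes. All intervals together named 4 genes of that list. Spermatogonial differentiation had 0 of 15 and meiosis 0 of 35, but all intervals named only 1 and 2 of them, so these zeros say little about the members. Spermatid genes had 2 of 28, Txndc2 and Odf1, a protein of the sperm tail's outer dense fibres, whose interval (4.98) lay 34.7 kb from its start, and all intervals named the same number, 2. The somatic lists had no member, with 0 of 21 Sertoli, 0 of 10 Leydig and 0 of 16 myoid, endothelial and macrophage genes, although all intervals together named 4, 0 and 3 of them. Cell cycle genes (0 of 37), apoptosis and p53 response genes (0 of 34) and retinoic acid pathway genes (0 of 19) had none, where all intervals named 4, 8 and 2.

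Signalling and stress genes had a few flank members. Growth factor, PI3K and MAPK genes had 3 of 42, with 9 named by all intervals: Sos1, the ERK phosphatase gene Dusp5 (4.14 from 17 fragments) and Eif4ebp1, the translation repressor 4E-BP1 (6.08 from 38 fragments). Immediate early and stress genes had 4 of 36, with 18 named by all intervals. These were Zfp36l1, which promotes decay of AU-rich mRNAs (6.05 from 40 fragments), the AP-1 subunit gene Junb (4.69 from 53), Ier3 (4.12 from 19) and Socs3.

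Replication-dependent histone genes had 4 of 67, all on chromosome 13, with 12 named by all intervals. Of these, Hist1h1d has its RefSeq start inside the interval shown above, Hist1h2ah and Hist1h4h are named for intervals on transfer RNA genes 8.82 and 12.9 kb away, and Hist1h2bj (4) lay 7.60 kb from its start. Zinc finger genes had 7 of 517, solute carriers 6 of 391 and small GTPases and their regulators 3 of 234, where all intervals named 39, 25 and 15. Ribosomal protein genes had 1 of 79 and olfactory and vomeronasal receptors 0 of 1470, where all intervals named 8 and 2. With counts of 7 or fewer genes a list, these are descriptions of where members fell.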

How the data were processed

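The submitters' processing notes name build mm10 and the tools MACS2 2.1.2, Bowtie2 2.2.5 and Trim Galore 0.5.0. No source used here states their order, the handling of duplicate reads or the way the replicates were joined. Per the file headers, the deposited fold is a ratio of CHD4 to IgG with its log2. The deposited −log10 p and −log10 q were identified by column order, since their headers are damaged, and a deposited score is 10 times the −log10 q. Rows sharing chromosome, start and end were collapsed to 1 interval, given its summit of highest fold.

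Fragment numbers were recovered from fold and −log10 p, with a scale of 0.429 and 1 solution at all 2066 summits to within 0.0005, a method tested on simulated data. Gene bodies, promoter windows and small RNA genes came from RefSeq tables of GRCm38.p6, whose chromosomes match mm10, and 99.9% of gene identifiers matched. Any overlap of 1 base counted. Shares have exact 95% binomial intervals and medians order-statistic ones, which cover counting error only. Members, gene lists and the rule for named genes were chosen with earlier results of these data known. Named were all 5′ UTR, 3′ UTR and downstream intervals, in each larger class the 8 highest and 3 lowest folds and the 4 highest −log10 q, list genes, genes with several members, small RNA members and those nearest the distance limits, from which the text takes its examples. Some genes that meet this rule are not reported here. Python 3.11.15, pandas 2.3.3, numpy 2.4.6, scipy 1.17.1 and matplotlib 3.10.9 were used.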

Additional observations from a re-analysis of the deposited data

How the results depend on the processing

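The intervals, medians and shares of each class were recomputed with each summit as the unit, with a −log10 q of 2 or more, with the summit of highest −log10 q, with 1 summit per interval, without small RNA genes, and with another minimum overlap. Of 160 such values for 42 results, 154 moved by less than the spread or interval of the result. With a −log10 q of 2 or more, 1 5′ UTR interval and 9 3′ UTR intervals were left, and 60.3% of the 1 to 2 kb flank had a fold of 5 or more. Without small RNA genes 1 5′ UTR interval was left. With each summit as the unit the median exon fold was 4.57, since the main value takes the highest summit of an interval. With 50% of the interval as the minimum overlap, 75.6% of exon intervals overlapped a gene body, against 86.6% with 1 base. No paired analysis was possible because the list holds no value of a single sample. Depth limits single intervals: 55 members rest on fewer than 20 CHD4 fragments.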
